A study of Mus musculus with 18 samples.

Results

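The heat shock proteins and cochaperones described here are 10 mouse genes, taken by name: the small heat shock proteins Hspb1, Hspb8 and Cryab, the stress-inducible HSP70 genes Hspa1a and Hspa1b, the constitutive HSP70 gene Hspa8, the HSP90 gene Hsp90aa1, the HSP110 gene Hsph1, and the cochaperones Dnajb1 and Bag3. All probe sets whose platform annotation gave only that symbol were members, which came to 26 of the 45101 probe sets on the array and 10 of 18194 named genes. Of these 26, 23 were bright enough to test, at least 1 for every gene. The dim ones were 1 of 3 probe sets of Cryab and 2 of 5 of Hsp90aa1, whose signals reached at most 22.97 and 40.42 on any array. In a fit with no filter on brightness they had no call either (lowest adjusted p 0.364).

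The study compared Ppt1 knockout with wild-type mice aged 3, 5 and 8 months, with 3 arrays in each of the 6 groups and 18 arrays in all. The Ppt1 gene codes for a thioesterase of the lysosome that strips fatty acids from proteins, and people without it develop a neurodegenerative storage disease in childhood. The knockout at 8 months held 2 males and 1 female, and the other 5 groups 1 male and 2 females. The labels name no strain, allele or treatment, and give the tissue as both brain and cochlea. Since they leave unsaid whether each array had its own mouse, p-values measure the spread between these arrays, which may be technical.

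Heat shock proteins keep other proteins folded, soluble or on their way to degradation. Small heat shock proteins bind unfolding clients without using ATP, and HSP70 then refolds them with J-domain partners such as Dnajb1 and with Hsph1, which exchanges its nucleotide. Bag3 joins HSP70 to Hspb8 and directs clients to autophagy, and HSP90 matures signalling proteins. The transcription factor HSF1 raises many of these genes under stress through heat shock elements, which are repeats of GAA and its reverse complement TTC in alternating direction. In brain, Cryab is abundant in oligodendrocytes and astrocytes, Hspb1 is known as a gene of stressed or reactive astrocytes, and Hspa8 and Hsp90aa1 are abundant in neurons.

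To show where the members carry such repeats, RefSeq promoter windows (assembly GRCm38.p6) were searched on both strands for GAANNTTC and TTCNNGAA, where N is any base. Each pattern reads the same on the opposite strand. Windows were found for 7 of the 10 genes, Hspb1, Hspb8, Hspa1a, Hspa1b, Hsph1, Dnajb1 and Bag3, and not for Cryab, Hspa8 and Hsp90aa1. In the 250 bases before the start, 4 of the 7 genes held a match. Over all 32851 windows of that length, 6.69% held GAANNTTC, 7.17% held TTCNNGAA and 12.8% held either. Hspb1 held GAANNTTC at 2 places, beginning 117 and 97 bases before the start, and Hspa1a and Hspa1b each held it at 104 bases. Hsph1 held TTCNNGAA at 33 bases before the more upstream of its 2 listed starts. No match was found in the windows of Hspb8, Dnajb1 and Bag3, which says only that these letters are absent there. The last 150 bases before the start follow, 5′ to 3′ on the strand of the gene with matches in capitals, for the 4 genes with a match and for Hspb8 as a gene with none. Positions are chr5:135887769-135887918 (plus strand) for Hspb1, chr17:34972157-34972306 (minus) for Hspa1a, chr17:34959239-34959388 (minus) for Hspa1b, chr5:149636337-149636486 (minus) for Hsph1 and chr5:116422865-116423014 (minus) for Hspb8.
Hspb1: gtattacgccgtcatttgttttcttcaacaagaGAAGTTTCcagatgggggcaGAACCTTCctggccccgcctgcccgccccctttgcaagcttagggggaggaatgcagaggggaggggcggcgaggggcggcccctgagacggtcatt
Hspa1a: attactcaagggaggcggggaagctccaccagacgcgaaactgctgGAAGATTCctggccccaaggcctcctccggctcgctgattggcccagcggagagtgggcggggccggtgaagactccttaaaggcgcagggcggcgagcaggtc
Hspa1b: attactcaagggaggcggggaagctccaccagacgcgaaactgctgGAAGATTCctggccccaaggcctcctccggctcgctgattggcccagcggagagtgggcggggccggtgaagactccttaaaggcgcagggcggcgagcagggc
Hsph1: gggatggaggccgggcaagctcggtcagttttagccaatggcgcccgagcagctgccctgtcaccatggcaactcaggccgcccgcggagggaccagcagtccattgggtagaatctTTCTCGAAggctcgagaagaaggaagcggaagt
Hspb8: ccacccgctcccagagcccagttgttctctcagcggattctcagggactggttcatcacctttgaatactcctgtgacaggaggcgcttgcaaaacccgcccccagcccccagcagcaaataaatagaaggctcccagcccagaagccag
Hspa1a and Hspa1b are neighbouring copies, and 247 of their 250 upstream bases were identical. Their transcripts are near-identical too, so the probe sets named for either gene may read both, and values of the 2 genes are not independent.

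Array values are linear signals, deposited with the same trimmed mean of 150 on every array and array medians between 43.17 and 46.09. Signals of different probe sets are not comparable with each other. Ppt1 itself, the check of the labels, lay between 0.879 and 23.4 on the 9 knockout arrays and between 543 and 629 on the 9 wild-type arrays. The knockout array at 8 months called replicate 3 stood apart from the other 2 of its group: its mean correlation with them was 0.9614 and its score on the main principal component 9.9, against scores of 50.7 and 45.6. It read less of the glial marker genes, with a summed signal of 10 astrocyte genes of 29270 against 35910 and 35900 in replicates 1 and 2. Member counts that rest on the 8-month knockout are therefore given with and without it. So are the 8-month differences of the members called at that age and of Dnajb1 and Hsph1. The 8-month differences of Hspa8, Hsp90aa1 and the genes named from other lists are given with it only. Differences are log2(signal + 16) in knockout minus wild type from 1 limma model of all 18 arrays with sex as a term, ± standard error, with p-values adjusted by Benjamini-Hochberg over 27025 probe sets and called at 0.05. Folds are on the same scale and understate changes of dim probe sets.

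At 8 months 6 of the 10 heat shock genes were higher in the knockout, and the other 4 had no call. At that age, 10 of 23 member probe sets from 6 genes were higher in the knockout and 0 were lower by limma (11 higher and 0 lower at an unadjusted p under 0.05). Among all probe sets tested, 5.74% were higher and 5.91% lower. The 6 genes were Hspb1, Hspb8, Cryab, Hspa1a, Hspa1b and Bag3, of which Hspa1a and Hspa1b are not independent. The list was chosen with earlier results of these data known, so its share beside that of all probe sets is a description only. The median change of the 10 genes, each by its brightest probe set, was 0.62 with a range of -0.09 to 1.95, beside a median of -0.02 over 12496 genes. All 3 knockout arrays lay above all 3 wild-type arrays at 10 of 23 member probe sets, and this held for 11.7% of all probe sets. Without replicate 3 of the knockout, 8 member probe sets were higher and 4 lower (8.9% and 11% of all), and Hspa1a and Bag3 no longer passed. Without wild-type replicate 1 of that age, 6 member probe sets were called. In RNA from whole tissue, more cells of a type and more RNA per cell cannot be told apart.

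**Figure D1:**
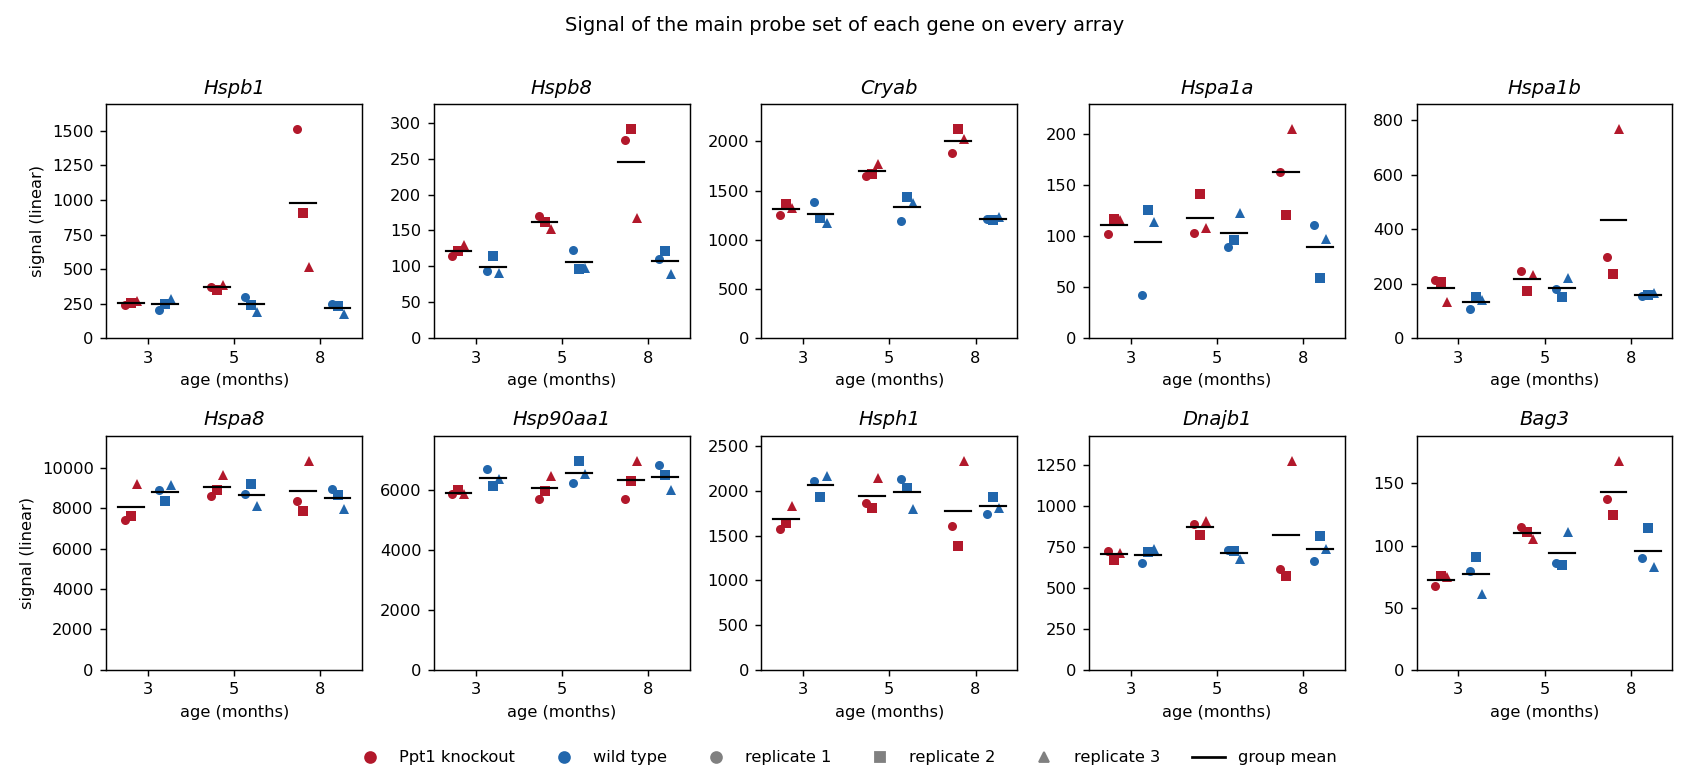
Signal (linear) of the brightest probe set of each of the 10 genes on all 18 arrays against age in months, knockout in red left of wild type in blue, with marker shapes for replicates and bars for group means. Hspb1, Hspb8, Cryab and Bag3 climb with age in the knockout. A single 8-month knockout array, replicate 3, is the highest for Hspa1a, Hspa1b, Hspa8, Hsp90aa1, Hsph1, Dnajb1 and also Bag3.

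Hspb1, the small heat shock protein known as HSP27 in people, changed the most. Its brightest probe set read 239.8, 255.6 and 271.4 in the knockout at 3 months, 374.5, 352.4 and 387.4 at 5 months, and 1510, 906.9 and 516.3 at 8 months. In the wild type it read 204.3, 249.1 and 283.2 at 3 months, 298.3, 242.8 and 192.3 at 5 months, and 251, 231.9 and 173.1 at 8 months. Knockout and wild-type arrays overlapped at 3 months and were apart at both later ages. The 8-month knockout arrays also differed widely among themselves, with a mean of 977.6 ± 500 (SD, n = 3). The difference was 0.06 ± 0.24 at 3 months (adjusted p 0.969), 0.59 ± 0.24 at 5 months (0.249) and 1.95 ± 0.24 at 8 months, a 3.88-fold rise (limma, adjusted p 1.44e-05). The other Hspb1 probe set, of the kind marked as open to cross-hybridisation, read 1055, 574.4 and 338.4 in the 8-month knockout, against 82.14, 154.9 and 69.37 in the wild type. It rose by 2.46 ± 0.28, or 5.52-fold (limma, adjusted p 4.32e-06), and both probe sets gave the same order of the 8-month knockout arrays. Without replicate 3 the rise of the brightest probe set was 2.33 ± 0.18 (limma, adjusted p 4.74e-09). With replicate 3 as the only 8-month knockout array the difference was 1.16, and since a lone array has no spread of its own, values of replicate 3 alone are given without an error or test, here and for the other genes.

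Cryab, which encodes alpha B-crystallin, varied little between arrays. Its brightest probe set read 1256, 1364 and 1325 in the knockout at 3 months, 1650, 1669 and 1775 at 5 months, and 1885, 2122 and 2023 at 8 months. The wild type read 1389, 1221 and 1174, then 1189, 1434 and 1370, then 1214, 1200 and 1233 at the same ages. No knockout array overlapped a wild-type array at 5 or 8 months, and replicate 3 lay between the other 2 knockout arrays. The difference was 0.06 ± 0.07 at 3 months (limma, adjusted p 0.868), 0.35 ± 0.07 at 5 months (0.0103) and 0.73 ± 0.08 at 8 months (1.53e-06), the last a 1.66-fold rise. The other tested probe set rose by 0.41 ± 0.08 at 5 months (limma, adjusted p 0.00757) and by 0.40 ± 0.09 at 8 months (0.00467), so that its change at 8 months was the smaller of the 2. Cryab was the 1 gene of the 10 with a call at 5 months, where 2 of 23 member probe sets were higher and 0 lower, beside 1.64% of all probe sets higher. Leaving out any 1 of the 3 knockout arrays of that age, or wild-type replicate 1 or 2, left 1 call. The brightest Cryab probe set did not pass at 5 months without knockout replicate 1 or 3 (0.36 and 0.33, limma, adjusted p 0.0534 and 0.0595) or without wild-type replicate 1 (0.28, 0.105). The 5-month arrays share the estimate of spread with the 8-month ones, and without replicate 3 the brightest probe sets of Hspb1 (0.59 ± 0.16, limma, adjusted p 0.039), Hspb8 (0.55 ± 0.13, 0.019) and Dnajb1 (0.29 ± 0.08, 0.0417) passed at 5 months as well. The 8-month value of Cryab was 0.72 ± 0.08 without replicate 3 and 0.75 with replicate 3 alone.

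Hspb8, the small heat shock protein that partners Bag3, rose as well. Its brightest probe set read 114.7, 121.6 and 129.4 in the knockout at 3 months, 170.1, 161.9 and 151.6 at 5 months, and 276.2, 290.5 and 167.1 at 8 months. The wild type read 94.27, 115.1 and 90.25 at 3 months, 122.7, 97.08 and 97.4 at 5 months, and 110.9, 122 and 90.11 at 8 months. The groups were apart at 5 and 8 months, but replicate 3 of the 8-month knockout lay at the level of the 5-month knockout. The difference was 0.26 ± 0.17 at 3 months (limma, adjusted p 0.687), 0.55 ± 0.17 at 5 months (0.104) and 1.06 ± 0.17 at 8 months (0.000347). A second probe set rose by 0.85 ± 0.21 at 8 months (limma, adjusted p 0.012), while the third, of the cross-hybridising kind, differed by 0.29 ± 0.23 (0.461). Without replicate 3 the brightest probe set rose by 1.28 ± 0.15 (limma, adjusted p 2.28e-06), and with replicate 3 alone it differed by 0.54.

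The inducible HSP70 genes were higher in the 8-month knockout, with 1 array far above the others. The brightest Hspa1b probe set read 213.3, 208.2 and 132.2 in the knockout at 3 months, 248.1, 173.8 and 233.1 at 5 months, and 299.9, 234.2 and 766.4 at 8 months. In the wild type it read 107.4, 152.6 and 138.9 at 3 months, 181.5, 151.1 and 221 at 5 months, and 156, 157.4 and 166.5 at 8 months. All 3 knockout arrays exceeded the wild type at 8 months, and replicate 3 read more than the other 2 knockout arrays together. The 8-month difference was 1.10 ± 0.27, or 2.15-fold (limma, adjusted p 0.0107). It was 0.66 ± 0.19 without replicate 3 (limma, adjusted p 0.0164) and 2.13 with replicate 3 alone. Without wild-type replicate 1 of that age it was 0.99 and did not pass (limma, adjusted p 0.0743). A second Hspa1b probe set rose by 1.06 ± 0.28 (limma, adjusted p 0.0156), and the third, of the cross-hybridising kind, differed by 0.72 ± 0.31 (0.147). At 3 and 5 months the brightest probe set differed by 0.41 ± 0.27 and 0.22 ± 0.27 (limma, adjusted p 0.678 and 0.78).

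Hspa1a has 1 probe set, which varied widely in the wild type. It read 102.1, 116.6 and 115.9 in the knockout at 3 months, 103.6, 141.1 and 107.8 at 5 months, and 163, 121 and 204.8 at 8 months. The wild type read 42.33, 125.6 and 114.1, then 89.22, 96.79 and 122.8, then 110.9, 59.35 and 97.15 at the same ages. The groups overlapped at 3 and 5 months and were apart at 8 months, where the lowest knockout array exceeded the highest wild-type array by a small margin. The 8-month difference was 0.82 ± 0.26, or 1.77-fold, close to the threshold (limma, adjusted p 0.0439). It did not pass without replicate 3 (0.64 ± 0.27, limma, adjusted p 0.102), and with replicate 3 alone it was 1.29. Nor did it pass without knockout replicate 1 of that age (0.79, limma, adjusted p 0.106). The same held without wild-type replicate 2 or 3 of that age (0.59 and 0.87, limma, adjusted p 0.196 and 0.0754).

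Bag3, the cochaperone that links HSP70 and Hspb8 to selective autophagy, showed a smaller rise. Its 1 probe set read 67.3, 75.75 and 74.32 in the knockout at 3 months, 114.7, 111 and 104.9 at 5 months, and 137.6, 124.5 and 168 at 8 months. The wild type read 79.41, 91.1 and 60.82 at 3 months, 86.2, 84.02 and 110.7 at 5 months, and 89.71, 113.9 and 82.89 at 8 months. The 8-month groups did not overlap, and the knockout at 3 months lay inside the range of its wild type. The difference was -0.06 ± 0.16 at 3 months (limma, adjusted p 0.949), 0.21 ± 0.16 at 5 months (0.621) and 0.51 ± 0.16 at 8 months (0.0444). Without replicate 3 it was 0.41 ± 0.17 and did not pass (limma, adjusted p 0.0999), and with replicate 3 alone it was 0.76. Nor did it pass without knockout replicate 1 or 2 of that age (0.54 and 0.63, limma, adjusted p 0.0797 and 0.062). The same held without wild-type replicate 1 or 3 of that age (0.46 and 0.44, limma, adjusted p 0.172 and 0.146).

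Dnajb1, the J-domain partner of HSP70, had no call at any age with all arrays, and at 8 months its knockout arrays fell on both sides of the wild type. Its brightest probe set read 726.7, 672.4 and 713 in the knockout at 3 months, 888.8, 824.1 and 907.3 at 5 months, and 615.4, 570.4 and 1275 at 8 months. The wild type read 651.5, 720.6 and 739, then 734.1, 725.1 and 676.7, then 665.1, 816 and 738.1 at the same ages. At 8 months replicates 1 and 2 of the knockout lay below every wild-type array of that age and replicate 3 above every one. The 8-month difference of 0.03 ± 0.18 (95% interval -0.34 to 0.40, limma, adjusted p 0.936) therefore averaged opposite values. Without replicate 3 the difference was -0.30 ± 0.09, lower in the knockout (limma, adjusted p 0.0167), and with replicate 3 alone it was 0.80. At 5 months every knockout array exceeded every wild-type array, with a difference of 0.29 ± 0.17 that did not pass (limma, adjusted p 0.504). The other Dnajb1 probe set had the same pattern, with 336, 302.1 and 574.6 in the 8-month knockout against 419.1, 417.7 and 381.4 in the wild type.

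Hsph1, the HSP110 exchange factor, also had replicate 3 of the 8-month knockout above the wild type and the other replicates below it. Its brightest probe set read 1571, 1640 and 1829 in the knockout at 3 months, 1862, 1805 and 2149 at 5 months, and 1608, 1383 and 2334 at 8 months. The wild type read 2113, 1930 and 2170 at 3 months, 2131, 2028 and 1800 at 5 months, and 1738, 1937 and 1806 at 8 months. The 3-month knockout arrays all lay below the 3-month wild type, yet the difference of -0.30 ± 0.12 did not pass (limma, adjusted p 0.395). At 8 months the difference was -0.09 ± 0.13 (95% interval -0.36 to 0.17, limma, adjusted p 0.688). Without replicate 3 both Hsph1 probe sets were lower in the 8-month knockout, with -0.29 ± 0.09 (limma, adjusted p 0.0309) and -0.46 ± 0.08 (0.000525).

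Hspa8, the constitutive HSP70 of every cell, and Hsp90aa1, an abundant cytosolic HSP90, had no call in any comparison with all arrays. The brightest Hspa8 probe set lay between 7433 and 10340 on the 9 knockout arrays and between 7952 and 9182 on the 9 wild-type arrays. Its 8-month difference was 0.04 ± 0.09 (95% interval -0.15 to 0.23, limma, adjusted p 0.826). Above the wild-type range lay replicate 3 of the knockout at each of the 3 ages, with 9193, 9650 and 10340. The brightest Hsp90aa1 probe set lay between 5709 and 6971 in the knockout and between 6014 and 6960 in the wild type. Its 8-month difference was -0.03 ± 0.07 (95% interval -0.18 to 0.12, limma, adjusted p 0.85). At 3 months every knockout array of this probe set (5862 to 6009) lay below every wild-type array (6138 to 6704), without a call. The other tested Hsp90aa1 probe sets overlapped between genotypes at that age. At 5 months the knockout mean of the brightest one was 6053, against a wild-type mean of 6577, with overlapping arrays.

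**Figure D2:**
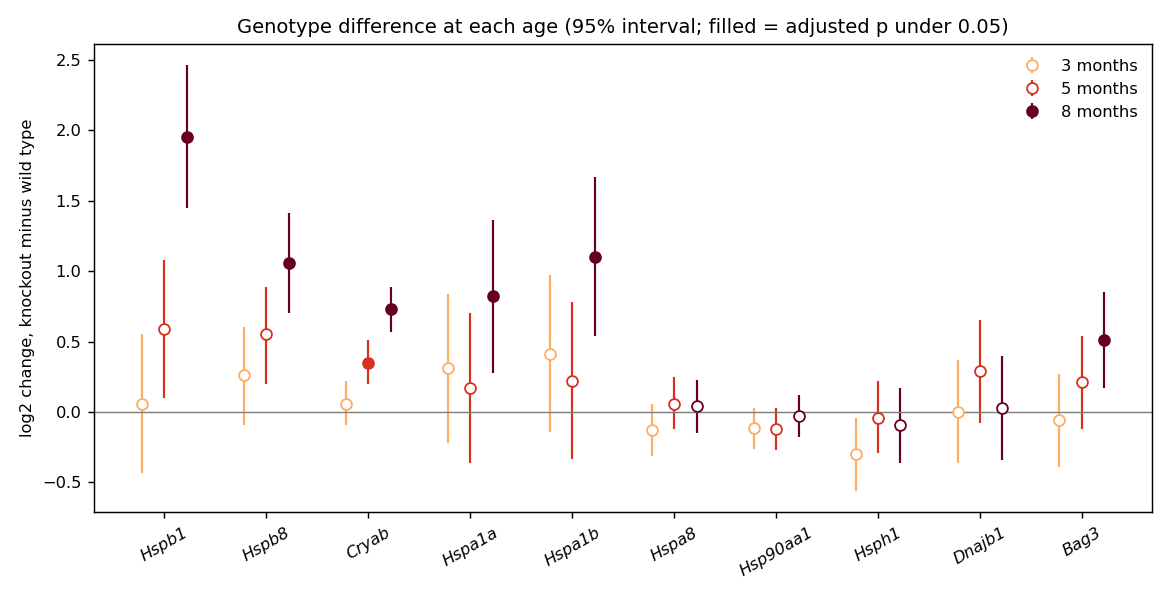
Difference in log2(signal + 16), knockout minus wild type, of the brightest probe set of each gene at 3, 5 and 8 months, with 95% intervals from the limma model, filled where the adjusted p was under 0.05. At 3 months no point is filled, at 5 months Cryab is, and at 8 months Hspb1, Hspb8, Cryab, Hspa1a, Hspa1b and Bag3 are.

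Change with age was then tested within each genotype. Between 8 and 3 months in the knockout, 8 of 23 member probe sets of 5 genes were higher and 0 lower by limma (10 higher and 2 lower at an unadjusted p under 0.05), beside 2.9% of all probe sets higher. Hspb1 rose by 1.73 ± 0.24 (limma, adjusted p 0.000264), Hspb8 by 0.89 ± 0.17 (0.00404), Cryab by 0.62 ± 0.08 (6.89e-05), Hspa1b by 0.94 ± 0.27 (0.0441) and Bag3 by 0.84 ± 0.16 (0.00442). In the wild type over the same ages, 0 of 23 were higher or lower by limma, also at an unadjusted p under 0.05. There 0.0222% of all probe sets were higher. The wild-type changes of the brightest probe sets ranged from -0.18 to 0.26, and the knockout changes from 0.03 to 1.73. Without replicate 3 of the 8-month knockout, 7 member probe sets were higher with age in the knockout and 2 lower. Among all probe sets 7.13% were higher and 8.78% lower in that fit. Hspa1b did not pass there (0.50 ± 0.19, limma, adjusted p 0.0782). The lower member probe sets were the dimmer one of Hsph1 (-0.49 ± 0.08, limma, adjusted p 0.000404) and the dimmest one of Hspa8 (-1.02 ± 0.26, 0.00888). That Hspa8 probe set had a mean of only 109.3 in the 3-month knockout. The brightest one had a mean of 8075 there and read at least 7881 in the 8-month knockout. Without replicate 1 of the 3-month knockout, 5 member probe sets were called, and without replicate 2 of the 8-month knockout Hspb8 did not pass (0.71, limma, adjusted p 0.0749).

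Whether the genotype difference itself grew with age was tested as the difference at 8 months minus that at 3 months. It passed at 3 of 23 member probe sets, all higher, beside 0.718% of all probe sets higher (7 members higher and 0 lower at an unadjusted p under 0.05). Both Hspb1 probe sets passed, with 1.89 ± 0.34 (limma, adjusted p 0.0106) and 2.49 ± 0.39 (0.00442), and so did the brightest Cryab probe set with 0.67 ± 0.11 (0.00489). The other tested Cryab probe set did not pass. Without replicate 3 the members that passed were 5 higher and 0 lower, from Hspb1, Cryab and Hspb8 (1.02 ± 0.20 at its brightest probe set, limma, adjusted p 0.00272). More of all probe sets passed in that fit too, 3.51% higher and 3.77% lower. With all arrays Hspb8 gave 0.80 ± 0.24 (limma, adjusted p 0.11), Hspa1b 0.69 ± 0.38 (0.424), Hspa1a 0.51 ± 0.36 (0.561) and Bag3 0.58 ± 0.23 (0.239), so a growing difference was not shown for these 4 genes. At 3 months alone 0 of 23 member probe sets were called by limma (1 higher and 1 lower had unadjusted p-values under 0.05), beside 0.681% of all probe sets higher.

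As the mean over the 3 ages, 7 of 23 member probe sets of 4 genes were higher and 0 lower by limma (11 higher and 2 lower at an unadjusted p under 0.05), beside 6.62% of all probe sets higher and 6.02% lower. Cryab rose by 0.38 ± 0.04 (limma, adjusted p 2.21e-06), Hspb1 by 0.87 ± 0.14 (0.000166), Hspb8 by 0.62 ± 0.10 (0.000156) and Hspa1b by 0.58 ± 0.15 (0.0149). The mean for Hspa1a was 0.43 ± 0.15 and for Bag3 0.22 ± 0.09, neither of which passed (limma, adjusted p 0.0591 and 0.133). Without replicate 1 of the 3-month wild type the mean for Hspa1b did not pass (0.49, limma, adjusted p 0.0529). Without replicate 3 of the 8-month knockout, 8 member probe sets were higher and 3 lower, the lower ones from Hsph1 and Hsp90aa1. In that fit 8.85% of all probe sets were higher and 9.76% lower.

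In the order of group means, the 8-month knockout was highest for 6 genes, Hspb1, Hspb8, Cryab, Hspa1a, Hspa1b and Bag3. For Hspb1 and Cryab the 8-month knockout, the 5-month knockout and the next group did not overlap with each other, and the remaining groups did. For Hspb8 the 8- and 5-month knockouts overlapped and both stood above the 3-month knockout, which overlapped the wild type. For Bag3 the 8-month knockout stood above the 5-month knockout, and the groups after it overlapped their neighbours. For Hspa1b the 8-month wild type stood above the 3-month wild type and all other neighbours overlapped. The neighbouring groups of Hspa1a, Hspa8, Hsp90aa1, Hsph1 and Dnajb1 all overlapped, although groups farther apart in the order did not always do so, as in the pairs of one age described above.

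The 3 knockout arrays at 8 months differed from each other in which heat shock genes were high. Set against the mean of the 8-month wild type, Hspb1 stood at 2.72, 1.99 and 1.2 in replicates 1, 2 and 3 and Hspb8 at 1.25, 1.32 and 0.57 (log2 differences). Hspa1b stood at 0.84, 0.51 and 2.15, Dnajb1 at -0.25, -0.36 and 0.78 and Hsph1 at -0.18, -0.40 and 0.35. Replicate 3 was thus lowest of the 3 for Hspb1 and Hspb8 and highest for Hspa1a, Hspa1b, Dnajb1, Hsph1, Bag3, Hspa8 and Hsp90aa1. Among all 18 arrays it was the highest at 13 of 23 member probe sets and at 7 of the 10 brightest ones, while it was the highest at 5.59% of all tested probe sets. Replicate 1 was highest at 3 of 23 (11.6% of all) and replicate 2 at 2 of 23 (10.1% of all).

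**Figure D3:**
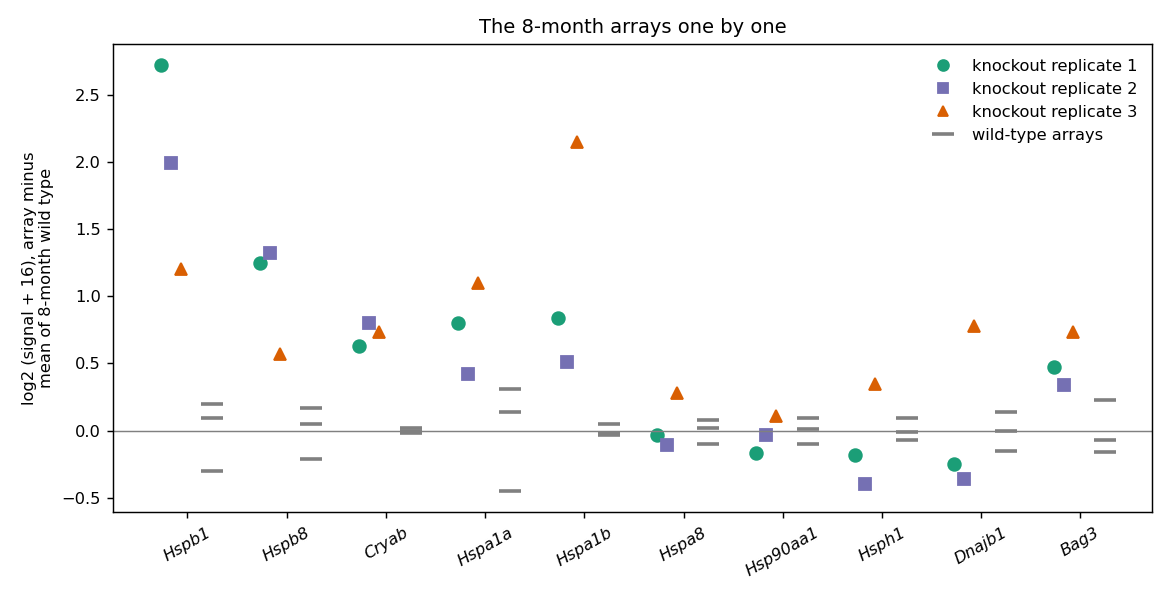
Log2 difference of each 8-month array from the mean of the 8-month wild type for the brightest probe set of each gene, with coloured symbols for the 3 knockout arrays left of grey bars for the wild-type arrays. Replicate 3 is the lowest knockout array for Hspb1 and Hspb8 and the highest for Hspa1b (2.15), Dnajb1 (0.78) and Hsph1 (0.35).

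Markers of glia, and immediate early genes, differed between the groups too. The 10 astrocyte genes summed to signals of 29270 to 35910 in the 8-month knockout, against 20030 to 20790 in the 8-month wild type, and 9 of 10 passed as higher. The range was 21780 to 22200 at 3 months and 27660 to 28640 at 5 months in the knockout, against 19870 to 20470 and 19300 to 19960 in the wild type. None of these 10 genes was at background on all arrays of a group. Aqp4, the astrocyte water channel, rose by 1.40 ± 0.10 at 8 months (limma, adjusted p 1.35e-08). The microglia sum was 7096, 8293 and 4751 in knockout replicates 1, 2 and 3 at 8 months, against 3250 to 3476 in the wild type, and 6 of 10 of its genes passed as higher and 1 as lower. The 10 neuron genes summed to 32760, 31110 and 37110 in the 8-month knockout, against 36550 to 37160 in the wild type, and 0 passed as higher and 1 as lower. The oligodendrocyte sum was 26160 to 27810 in the 8-month knockout, against 23660 to 25000 in the wild type. At 3 months it was the other way round, with 21450 to 24190 in the knockout, against 25310 to 27960 in the wild type. At 5 months it was 24840 to 26120 in the knockout, against 23390 to 24320.

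For the 13 immediate early genes, which include Fos, the sum was 3970, 2473 and 6025 in the 8-month knockout, against 2687 to 3113 in the wild type, so replicate 3 was highest there as well. It was 5021 to 5886 at 3 months and 5428 to 6450 at 5 months in the knockout, against 2905 to 3261 and 2487 to 4457 in the wild type. Actin's 5-prime signal over its 3-prime signal, which drops as RNA degrades, was 0.482, 0.448 and 0.432 in the 8-month knockout, against 0.525, 0.501 and 0.51 in the wild type. At 5 months it was 0.389, 0.463 and 0.473 in the knockout, against 0.497, 0.499 and 0.412 in the wild type, and at 3 months 0.539, 0.507 and 0.542, against 0.547, 0.485 and 0.48. The ratio of the knockout lay below all wild-type arrays at 8 months and overlapped the wild type at both earlier ages. The part of glial content, immediate early genes and RNA quality in the heat shock values was not tested. Of the other lists at 8 months, oligodendrocytes had 2 of 8 tested genes higher and 1 lower, endothelium 1 of 7 higher, mural cells and muscle 1 of 6, meninges 4 of 7, choroid plexus and ependyma 0 of 6 and blood 0 of 1. Of 12 cochlear genes on the array, 4 were bright enough to test and 1 of them was higher, so few genes of the labelled cochlea could be measured.

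The wider chaperone network was called about as often in either direction. Of 101 further chaperone and cochaperone genes listed, 95 had a probe set and 89 were tested, by the brightest probe set each. At 8 months 8 were higher and 7 lower in the knockout, beside 5.74% and 5.91% of all probe sets, with a median of -0.02, the same as over all genes. As the mean over ages 6 were higher and 6 lower, with a median of 0, and these shares were close to the 6.62% and 6.02% of all probe sets. The 15 calls at 8 months became 8 without knockout replicate 1 of that age and 19 without knockout replicate 3. Among all probe sets 8.9% were higher and 11% lower without knockout replicate 3. The 15 calls became 6, 9 and 9 without wild-type replicates 1, 2 and 3. The 12 calls as the mean over ages became 19 without replicate 3 of the 8-month knockout. There 8.85% of all probe sets were higher and 9.76% lower.

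Hspb6, a small heat shock protein that is abundant in muscle, had the largest change at 8 months among the network genes named. Its signal was 143.4, 113.8 and 102.6 in the knockout at 3 months, 156.6, 138.2 and 150.9 at 5 months, and 331.9, 247.9 and 192.9 at 8 months. In the wild type it was 114.2, 68.68 and 74.68, then 63.89, 85.19 and 59.78, then 93.78, 84.97 and 81.55 at the same ages. The groups were apart at 5 and 8 months, and replicate 3 was again the lowest knockout array at 8 months. Hspb6 rose by 0.95 ± 0.17 at 5 months (limma, adjusted p 0.00275) and by 1.32 ± 0.18 at 8 months (4.61e-05), a 2.5-fold rise. Of the 5 other small heat shock proteins listed with it, 4 were too dim to test and Hspb3 differed by -0.10 ± 0.29 at 8 months (limma, adjusted p 0.864).

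Among chaperones of the endoplasmic reticulum, 4 of 14 were higher and 0 lower at 8 months (5.74% and 5.91% of all probe sets), with a median of 0.2. At 3 months 0 were higher and 1 lower, the lumenal lectin chaperone Calr (-0.31 ± 0.07, limma, adjusted p 0.0406), with a median of -0.11, at 5 months none was called, and as the mean over ages 1 was higher, with a median of 0.03. The 4 genes at 8 months were Dnajc3, an inhibitor of the kinase PERK (0.50 ± 0.11, limma, adjusted p 0.00486), Sil1, an exchange factor of the lumenal HSP70 (0.55 ± 0.14, 0.0117), Hsp90b1, the lumenal HSP90 (0.32 ± 0.08, 0.0155), and the disulfide isomerase Pdia3 (0.28 ± 0.08, 0.0347). Dnajc3 read 365.9, 351.7 and 315.5 in the 8-month knockout, against 254, 212.5 and 269.3 in the wild type, and its difference at 3 months was -0.29 ± 0.11 (limma, adjusted p 0.308). Dnajc3 means at 3, 5 and 8 months were 335.5, 302.9 and 245.3 in the wild type and 270.2, 306.4 and 344.3 in the knockout. Those of Hsp90b1 were 1524, 1665 and 1274 in the wild type and 1420, 1470 and 1584 in the knockout. Between 8 and 3 months the median change of the 14 genes was -0.18 in the wild type, with none called, and 0.16 in the knockout. In the mitochondrial list, 1 of 9 was higher at 8 months, the protease Lonp1 (0.43 ± 0.10, limma, adjusted p 0.0107).

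The HSP90 cochaperones and HSP70 adaptors held both directions, with 2 of 20 higher and 4 lower at 8 months (5.74% and 5.91% of all probe sets) and a median of -0.17. Sgtb fell by 0.44 ± 0.09 (limma, adjusted p 0.00267), the kinase chaperone Cdc37 by 0.30 ± 0.08 (0.017), the phosphatase Ppp5c by 0.31 ± 0.09 (0.0253) and Stub1, the ubiquitin ligase that acts on HSP70 clients, by 0.27 ± 0.07 (0.022). Cdc37l1 rose by 0.36 ± 0.09 (limma, adjusted p 0.0159). The other call was Fkbp5, a glucocorticoid-induced HSP90 partner named here after its values were seen, with 566.5, 201.9 and 173 in the 8-month knockout, against 131.5, 135.2 and 148.3 in the wild type. Its difference was 0.89 ± 0.27 (limma, adjusted p 0.0346), which did not pass without knockout replicate 1 (0.41 ± 0.16, 0.13) or without wild-type replicate 1, 2 or 3 (0.82, 0.88 and 0.94, with 0.141, 0.0833 and 0.0611). At the earlier ages Fkbp5 had the opposite sign, with -0.68 ± 0.26 at 3 months and -0.50 ± 0.26 at 5 months (limma, adjusted p 0.348 and 0.42), and the mean over ages was -0.10 ± 0.15 (0.748). As the mean over ages, 0 of the 20 were higher and 4 lower (6.62% and 6.02% of all probe sets), with a median of -0.06. The 4 were Sgtb (-0.24 ± 0.05, limma, adjusted p 0.00274), Ppp5c (-0.23 ± 0.05, 0.00315), Bag1 (-0.16 ± 0.04, 0.00885) and Stub1 (-0.14 ± 0.04, 0.0375). Of 5 other HSP70 and HSP110 genes tested, with a median of -0.33 at 8 months, 1 was lower at that age. This was Hspa4l, with -0.43 ± 0.13 (limma, adjusted p 0.0315). It read 591.2, 531.7 and 845 in the 8-month knockout, against 845, 859.5 and 858.4 in the wild type, so replicate 3 again lay apart from replicates 1 and 2. Dnajc6, the auxilin of clathrin uncoating, was the 1 of 16 J-domain genes called, lower with -0.23 ± 0.06 (limma, adjusted p 0.0203). In the chaperonin and prefoldin list 1 of 13 was lower, the prefoldin subunit Vbp1 (-0.23 ± 0.07, limma, adjusted p 0.0317). None of 3 tested genes of the HSF family and its regulators was called, with a median of -0.12, and none of 7 genes of aggregate clearance. Sqstm1, the autophagy receptor p62 in that last list, passed as the mean over ages (0.21 ± 0.04, limma, adjusted p 0.000726).

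**Figure D4:**
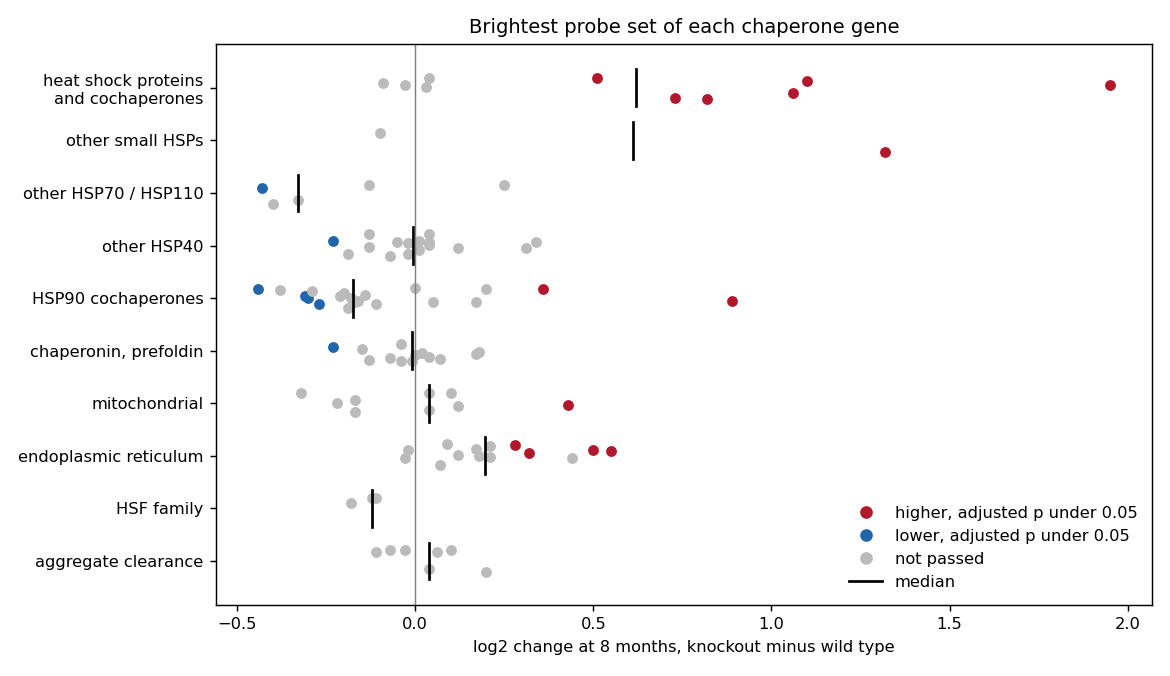
Log2 difference at 8 months, knockout minus wild type, of the brightest probe set of each chaperone gene by list, red where higher and blue where lower at an adjusted p under 0.05, with a bar at each list's median. The 10 heat shock genes have 6 red points and a median of 0.62, and Hspb6 stands at 1.32 among the other small heat shock proteins. The medians of the remaining lists run from -0.33 (other HSP70 and HSP110 genes) to 0.2 (endoplasmic reticulum).

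The genes whose pattern was most like that of 4 members were found by Pearson correlation of log2 values over the 18 arrays, which share groups of genotype and age, so a high value describes a shared group pattern. For Hspb1 they were Dbndd2 (r = 0.956, Spearman 0.8), Lrrc8a (0.945, 0.794) and Plce1 (0.942, 0.765). For Hspb8 they were Dbi (0.976, 0.891), Pttg1ip (0.96, 0.913) and A2m (0.958, 0.756). Cryab was most like Gnai2 (0.935, 0.928), Mlc1 (0.929, 0.872) and Aqp4 (0.922, 0.886). Hspa1b was less closely matched, by Meis1 (0.806, 0.686), Ddx5 (0.804, 0.678) and Slc20a1 (0.801, 0.829).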

How the data were processed

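Each of 18 RNA samples was measured on its own Affymetrix mouse array. The authors deposited linear intensities for 45101 probe sets, and these have the same mean, 150, on all arrays once 2% of probe sets are trimmed at either end. How they were computed and scaled is not given in the sources used here. Group, age and sex were read from the labels, with replicate numbers in the order of the sample records. To test differences, 16 was added to each intensity and log2 taken. Control probe sets (64) and the dimmest 40% by mean intensity were dropped, so that 27025 remained, with a mean log2 value of 5.36 or more. The limma model (version 3.58.1, R 4.3.3) used lmFit and eBayes with a variance trend on 6 groups plus additive sex. Tests were two-sided, with Benjamini-Hochberg adjustment and a threshold of 0.05. Errors of log2 differences are standard errors of the model. Background was the 95th percentile of 27 bacterial controls on each array. Precision is limited by the number of arrays.

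Probe sets were named where the platform annotation gave a single symbol. Members, chaperone lists and marker lists were chosen with earlier results of these data known. The brightest probe set of a gene has the highest mean over the arrays. The text names up to 4 genes per chaperone list, those with the smallest p among the calls as the mean over ages or at 8 months, and, for each of 4 members, the 3 genes most correlated with it. Promoters are from RefSeq (GRCm38.p6), and the array values carry no coordinates. The model was tested on simulated data. Other settings were quantile normalization, centring on the median, a pseudocount of 1 or of 64, filters of 0 and 60%, a model without sex, variance estimates without trend or robust to outliers, weighted arrays, a single probe set for each gene, a model of the compared groups only, arrays left out one at a time, and 8-month knockout replicates 1 and 2 left out together.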

Additional observations from a re-analysis of the deposited data

Results flagged for a closer look

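The genotype difference of 3 member probe sets was larger at 8 months than at 3 months by the test of that difference itself. At the brightest Hspb1 probe set it grew by 1.89 on the log2 scale (limma, adjusted p 0.0106) and at the other Hspb1 probe set by 2.49 (0.00442). Of the 2 tested Cryab probe sets only the brightest passed, with 0.67 (limma, adjusted p 0.00489). The 3 knockout arrays showed the direction in each case, since every 8-month knockout array lay above every 8-month wild-type array, while the groups overlapped at 3 months. The 8-month knockout held 2 males and 1 female and the other groups 1 male and 2 females, and the model held sex as a term.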

How the results depend on the processing

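Over the 10 brightest member probe sets, 70 results were recomputed in up to 32 settings. Of 2160 values 2060 kept their side of the threshold, among them 38 that passed in neither setting and changed sign, 72 no longer passed, 27 newly passed and 1 reversed, Dnajb1 at 8 months without replicate 3 of the 8-month knockout (-0.3, limma, adjusted p 0.0167), whose values with 1 array left out ran from -0.3 to 0.29. Apart from the fit with replicate 3 alone, Hspb1, Cryab and Hspb8 at 8 months passed in all other settings. With replicate 3 alone Hspb8 differed by 0.54, against 1.06 with all arrays. At 8 months Hspa1a did not pass in 18 of 31 settings and Bag3 in 17 of 31. Hspa1b at 8 months did not pass with only the groups compared (adjusted p 0.0657) or without wild-type replicate 1 (0.0743), and as the mean over ages in 3 of 30 (up to 0.0566). Cryab at 5 months did not pass in 4 of 31 (up to 0.105). Between 8 and 3 months in the knockout, Hspa1b did not pass in 18 of 31, Hspb8 in 3, and Hspb1 and Bag3 in 1 each. The totals over settings include the fit with replicate 3 alone, where the lone array is assumed to vary like the other groups. Counts of calls from that fit are therefore not given. The age difference of Hspb1 did not pass without a variance trend or with a robust variance model, and that of Cryab without a trend. With replicate 3 alone the age difference of Hspb1 was 1.1, against 1.89 with all arrays. Member probe sets called as the mean over ages were 7, and 11 with array weights, 4 with 1 probe set per gene and 5 to 11 with 1 array left out. At 3 months they were 0, and 1 with only the groups compared and 0 to 0 with 1 array left out. At 5 months they were 2, and 0 without a trend, 1 with 1 probe set per gene, 4 with only the groups compared and 1 to 5 with 1 array left out. At 8 months they were 10, and 6 with 1 probe set per gene, 5 with only the groups compared and 6 (without wild-type replicate 1) to 12 (without knockout replicate 3) with 1 array left out. For the difference at 8 minus that at 3 months they were 3, and 0 without a trend, 5 with array weights and 3 to 5 with 1 array left out. Between 8 and 3 months in the knockout they were 8, and 5 with 1 probe set per gene, 3 with only the groups compared and 5 (without the 3-month replicate 1) to 9 with 1 array left out. The chaperone network had 12 calls as the mean over ages, and 20 with array weights, 21 with all probe sets and 9 to 19 with 1 array left out. At 8 months it had 15, and 5 without a trend, 31 with all probe sets, 3 with only the groups compared and 6 to 19 with 1 array left out. Fits with fewer arrays or only the groups compared have fewer degrees of freedom, and 1 probe set per gene counts fewer probe sets. The cause of the other moves was not tested. No paired analysis was possible because the labels number the samples 1 to 18 with no number shared between groups, and the replicate numbers given in record order pair nothing. Dim probe sets near background limit what could be tested, as for 3 of the 26 member probe sets.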
